A study of Rattus norvegicus with 9 samples.

Results

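The 8 genes described here are the Id family (Id1, Id2, Id3 and Id4) and 4 genes of bone morphogenetic protein (BMP) signalling, Bmp6, Bmpr1a, Smad6 and Smad7, in rat liver. A probe set, a group of array probes that reads one transcript, was taken when its symbol in the platform annotation was exactly one of these names, which gave 20 of the 31042 probe sets used and 8 of the 14217 genes with a name of their own on the array. The genes were chosen on the model and control values of these arrays, in which an Id2 probe set was lower in model livers, so the model values against the control values are given below as a description, with no test. The study arrayed livers of Wistar rats labelled male and weighing 180 to 220 g, 3 rats from each group of 12. The drug group is labelled with 7-P, the model group is named only as a model, and the control group only as control; it is not stated whether the drug rats were also model rats, and the sources used here do not state what induced the model, what 7-P is, its dose, the times or the ages of the rats.

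BMP ligands bind a pair of serine/threonine kinase receptors, which phosphorylate Smad1, Smad5 and Smad9; these join Smad4 and enter the nucleus. Id genes are among the direct targets, and so are Smad6 and Smad7, which inhibit the receptors in return. Id proteins have a helix-loop-helix but no basic DNA-binding region, so they pair with E proteins such as those of Tcf3, Tcf4 and Tcf12 and keep them off DNA. In liver, sinusoidal endothelial cells are a main source of Bmp6, which drives hepatocytes to make the iron hormone hepcidin (Hamp).

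The promoter windows below, from RefSeq on build GRCr8, run from 250 bases before to 50 bases after the annotated start and read 5′ to 3′ along the gene. They are shown because a GC-rich element, GGCGCC, is known from BMP-responsive promoters; capitals mark its matches, and its letters read the same on both strands. Id2, at chr6:47470946-47471245 on the minus strand, is the gene on which the choice of genes rests, Smad7, at chr18:71263258-71263557 on the plus strand, is an inhibitor that BMP signalling itself induces, and Hamp, at chr1:95300222-95300521 on the minus strand, is the hepatocyte target.
Id2: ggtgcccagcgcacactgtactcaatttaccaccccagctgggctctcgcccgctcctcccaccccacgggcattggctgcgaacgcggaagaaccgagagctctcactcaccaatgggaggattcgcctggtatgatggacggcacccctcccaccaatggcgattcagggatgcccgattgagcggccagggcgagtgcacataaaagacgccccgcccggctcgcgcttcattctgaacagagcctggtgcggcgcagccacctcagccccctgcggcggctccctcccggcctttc
Smad7: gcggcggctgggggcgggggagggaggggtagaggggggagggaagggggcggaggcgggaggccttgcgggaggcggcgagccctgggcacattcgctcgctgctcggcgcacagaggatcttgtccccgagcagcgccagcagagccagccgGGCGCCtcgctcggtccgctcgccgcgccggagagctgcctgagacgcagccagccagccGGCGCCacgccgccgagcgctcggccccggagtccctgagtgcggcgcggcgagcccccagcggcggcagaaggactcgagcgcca
Hamp: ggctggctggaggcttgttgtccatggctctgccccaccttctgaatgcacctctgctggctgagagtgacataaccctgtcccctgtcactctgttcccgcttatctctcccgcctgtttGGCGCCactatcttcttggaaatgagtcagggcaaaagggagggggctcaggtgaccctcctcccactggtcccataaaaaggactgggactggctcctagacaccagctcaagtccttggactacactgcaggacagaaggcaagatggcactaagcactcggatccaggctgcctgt
A window was found for 7 of the 8 genes, and 2 of these 7, Id4 and Smad7, held the element, as did 11.0% of all 33469 windows. The Hamp match began 129 bases before the annotated start. Both Smad7 matches also began before the annotated start, whereas the Id4 match began after it. The Id1, Id2 and Id3 windows held none, which says only that these letters are not in these 300 bases.

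The arrays differed in ways other than the groups. Trimmed mean signals before normalization lay between 33.6 and 81.1. The Gapdh 3′ to 5′ signal ratio, a measure of RNA quality that is high when the 5′ end is underrepresented, was 1.31, 9.20 and 8.71 in drug livers 1, 2 and 3, 4.09, 12.7 and 9.77 in model livers, and 1.52, 3.14 and 3.07 in control livers. Drug 3 and control 2 differed from the other 7 arrays in sex-linked transcripts. Their log2 Xist signals were 3.05 and 2.65 against 8.06 or more elsewhere, and their Eif2s3y signals 7.17 and 6.99 against 2.53 or less. The sex-biased Cyp2c11 was at 12.1 and 11.3 against 5.22 or less, and Cyp2c12 at 8.19 and 5.82 against 11.86 or more. All 9 rats were labelled male, and in these transcripts the other 7 arrays, which include every model liver, do not match that label. Sex pattern was thus unbalanced between the groups. Values without control 2 and drug 3 stand beside each of the 8 genes. All 9 hepatocyte markers found on the array passed the filter described next.

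Signals were compared on a log2 scale after quantile normalization, and a probe set was tested when its mean log2 signal over the 9 arrays was at least 2.82, the 40th percentile. Of the 20 probe sets 15 passed, at least 1 for each of the 8 genes. Differences are log2 differences of group means and SE stands for their standard error in limma. Fewer cells of a type and less RNA per cell cannot be told apart in whole liver.

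Id2, which in mouse liver has been linked to circadian and metabolic control, was read by a pair of probe sets that did not move alike. In 1368870_at the log2 signals were 7.34, 7.50 and 7.49 in drug livers, 6.29, 7.10 and 6.55 in model livers, and 8.01, 8.10 and 7.71 in control livers. Each group lay apart from the others, with the model livers lowest, the drug livers between and the control livers highest. These are the values that chose the genes: the model livers averaged 6.65 ± 0.41 and the control livers 7.94 ± 0.20 (SD, n = 3 each), a difference of -1.29 (SE 0.25), or 0.41 of the control signal on the linear scale. The drug livers, at 7.44 ± 0.09 (SD, n = 3), were 0.80 (SE 0.25) above the model livers and -0.50 (SE 0.25) from the control livers. Both drug comparisons of Id2 share arrays with the comparison that chose the gene, so these values carry no test either.

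The brighter Id2 probe set, 1375532_at, stands for the gene by the rule used here and gave another picture. Its log2 signals were 8.54, 8.39 and 8.55 in drug livers, 7.69, 7.79 and 8.19 in model livers, and 8.79, 7.67 and 8.04 in control livers. Every drug liver lay above every model liver, but the model and control livers overlapped, with control 1 the highest and control 2 the lowest of the 9 arrays. The difference was -0.28 (SE 0.29) for model minus control, 0.60 (SE 0.29) for drug minus model and 0.33 (SE 0.29) for drug minus control. Without control 1 the model minus control value was 0.03 and the drug minus control value 0.64, and without control 2 they were -0.53 and 0.077. Averaged over both probe sets, Id2 stood at -0.79 in model minus control. Both probe sets thus placed the drug livers above the model livers without overlap, and 1 of them placed the model livers below the control livers.

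**Figure D1:**
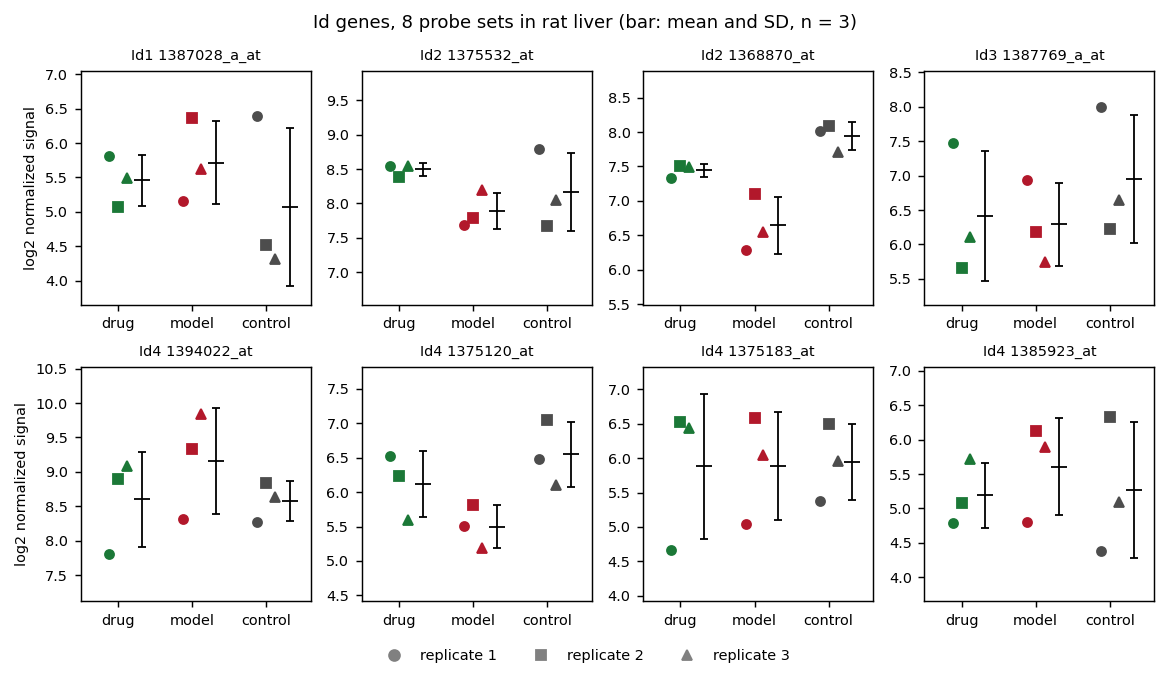
Log2 normalized signal of the 8 Id probe sets in each array, with the groups drug, model and control on the horizontal axis. Symbols mark replicate numbers, which the labels do not link to pairs of animals, and a bar gives the mean and SD of 3 rats. Each panel has its own vertical range. In Id2 1368870_at the 3 groups do not overlap, whereas in Id2 1375532_at control 1 is highest and control 2 lowest.

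The Gapdh ratios of the model livers all exceeded those of the control livers and were therefore set beside Id2. Drug 2 and drug 3, with ratios of 9.20 and 8.71, had 7.50 and 7.49 in 1368870_at, and drug 1, with a ratio of 1.31, had 7.34. Model 1, whose Gapdh ratio of 4.09 was the lowest of the model arrays, had the lowest signal in 1368870_at, 6.29. By the beta-actin 3′ to 5′ signal ratio, however, model 1 was the highest of all arrays, at 12.8. That ratio was 10.7 and 7.31 in model 2 and 3, and 3.99, 11.5 and 8.63 in drug 1, 2 and 3. In control 1, 2 and 3 it was 4.23, 8.41 and 7.59, so model and control livers overlapped in it. With a term for the log2 Gapdh ratio in the fit, the model minus control difference of 1368870_at was -1.49, and that of 1375532_at was -0.15. Without control 2 and drug 3 the model minus control values were -1.22 and -0.53. Leaving out control 1 and drug 1, the arrays with the lowest ratios, gave -1.26 and 0.03. Gapdh ratio and group went together in model against control, and the part of RNA quality in the Id2 values was not tested.

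**Figure D2:**
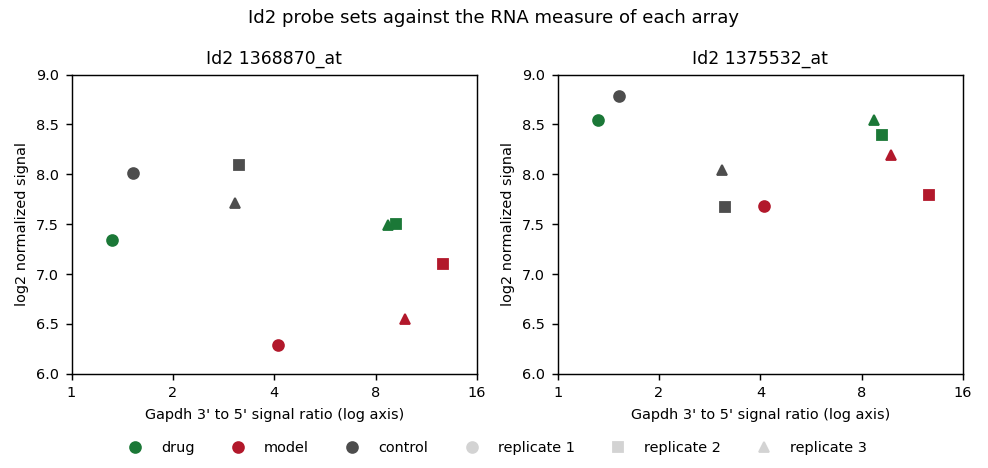
Log2 normalized signal of the pair of Id2 probe sets (vertical axis) against the Gapdh 3′ to 5′ signal ratio of the same array (horizontal log axis), coloured by group. The drug arrays at ratios of 8.71 and 9.20 have Id2 1368870_at signals of 7.49 and 7.50, above the model arrays at 4.09, 9.77 and 12.7. The part of RNA quality was not tested.

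Id1, the family member most widely used as a readout of BMP signalling, had log2 signals of 5.81, 5.08 and 5.49 in drug livers, 5.16, 6.37 and 5.62 in model livers, and 6.39, 4.51 and 4.31 in control livers. Control 1 was the highest of the 9 arrays and the other control arrays were the lowest, so the groups overlapped. The drug livers differed from the model livers by -0.26 (SE 0.54) and from the control livers by 0.38 (SE 0.54); the limma adjusted p was 0.998 and 0.85. The model minus control difference was 0.64 (SE 0.54) and lay between 0.26 (without control 3) and 1.30 (without control 1) with each array left out. Drug minus control lay between 0.0052 and 1.04, again without control 3 and without control 1. Leaving out both control 2 and drug 3 gave 0.36 for model minus control and 0.090 for drug minus control.

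Id3, another BMP-responsive member, had 7.47, 5.65 and 6.10 in drug livers, 6.94, 6.18 and 5.75 in model livers, and 8.0, 6.22 and 6.65 in control livers. Replicate 1 was the highest array in each group, and the groups overlapped. Drug 1 and control 1 are the arrays with the lowest Gapdh ratios, and the Id3 model minus control difference of -0.66 (SE 0.57) was 0.48 with the Gapdh term in the fit, -0.14 without control 1 and -1.03 without control 2, which is also its value without control 2 and drug 3 together. Drug minus model was 0.12 (SE 0.57) and drug minus control -0.55 (SE 0.57); the limma adjusted p was 0.998 and 0.80. Drug minus control was -0.025 without control 1, -1.08 without drug 1 and -0.76 without control 2 and drug 3, where drug minus model was 0.27.

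Id4 was read by 4 probe sets past the filter, and they did not agree in direction. The brightest, 1394022_at, had 7.81, 8.90 and 9.08 in drug livers, 8.32, 9.33 and 9.84 in model livers, and 8.27, 8.84 and 8.63 in control livers, all overlapping. Its differences were 0.58 (SE 0.43) for model minus control, -0.56 (SE 0.43) for drug minus model and 0.02 (SE 0.43) for drug minus control; the first was -0.27 with the Gapdh term and -0.18 without normalization. With control 2 and drug 3 left out these differences were 0.71, -0.80 and -0.091. In 1375120_at, singled out after its values were seen, the signals were 6.53, 6.24 and 5.59 in drug livers, 5.50, 5.81 and 5.18 in model livers, and 6.49, 7.05 and 6.11 in control livers. There every model liver lay below every control liver, by -1.05 (SE 0.34) on average, and drug 3 lay among the model livers. With control 2 and drug 3 left out that difference was -0.80, and drug minus control was 0.085 against -0.43 with all arrays. The remaining Id4 probe sets, 1375183_at and 1385923_at, differed by -0.06 and 0.34 in model minus control with overlap, and the mean of the 4 was -0.05. In both of them drug 1, model 1 and control 1 were the lowest arrays of their groups, as they were in 1394022_at.

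Bmp6, the ligand, was dim. In its brightest probe set, 1388920_at, the log2 signals were 3.75, 3.42 and 3.24 in drug livers, 3.61, 4.05 and 3.73 in model livers, and 4.72, 4.03 and 3.82 in control livers. Every drug liver lay below every control liver, by -0.72 (SE 0.37), which did not pass (limma adjusted p = 0.70, 95% interval -1.54 to 0.10). That difference was -0.46 without control 1, -0.90 without control 3 and -0.68 without control 2 and drug 3. The next Bmp6 probe set, 1388201_at, had 4 of 9 arrays under the filter level and a drug minus control difference of -0.22 (SE 0.74), and it went the other way in model minus control, at 0.87 (SE 0.74) against -0.39 (SE 0.37) in 1388920_at.

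The receptor Bmpr1a, a type I BMP receptor kinase, was read by 1 probe set. Its signals were 5.07, 4.04 and 5.34 in drug livers, 4.94, 4.49 and 4.68 in model livers, and 4.49, 5.24 and 5.02 in control livers. The groups overlapped, and the differences of 0.12, -0.10 and -0.22 (SE 0.38 each) for drug minus model, drug minus control and model minus control were smaller than their errors. In the same order they were -0.14, -0.20 and -0.056 without control 2 and drug 3.

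Of the inhibitory Smads, Smad6 acts mainly on BMP receptors and Smad7 on both BMP and TGF-beta receptors. Smad6 in 1394025_at had 3.88, 4.0 and 3.98 in drug livers, 3.92, 4.59 and 5.36 in model livers, and 4.76, 4.49 and 4.16 in control livers. Every drug liver lay below every control liver, by -0.52 (SE 0.38), which did not pass (limma adjusted p = 0.75), and the drug livers spread least, with an SD of 0.06. Leaving out control 2 and drug 3 gave -0.52 as well. A dimmer Smad6 probe set, 1375121_at, had a drug minus control difference of -0.07 (SE 0.66), with 3 of 9 arrays under the filter level. Smad7 in 1368896_at had 5.13, 4.87 and 5.85 in drug livers, 4.79, 6.05 and 6.16 in model livers, and 5.75, 5.76 and 5.53 in control livers. It differed by -0.38, -0.40 and -0.01 (SE 0.40 each) in drug minus model, drug minus control and model minus control, with overlap throughout, and by -0.67, -0.64 and 0.028 when control 2 and drug 3 were left out. The other Smad7 probe set past the filter, 1368898_at, gave 0.09, 0.29 and 0.19 (SE 0.39 each).

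**Figure D3:**
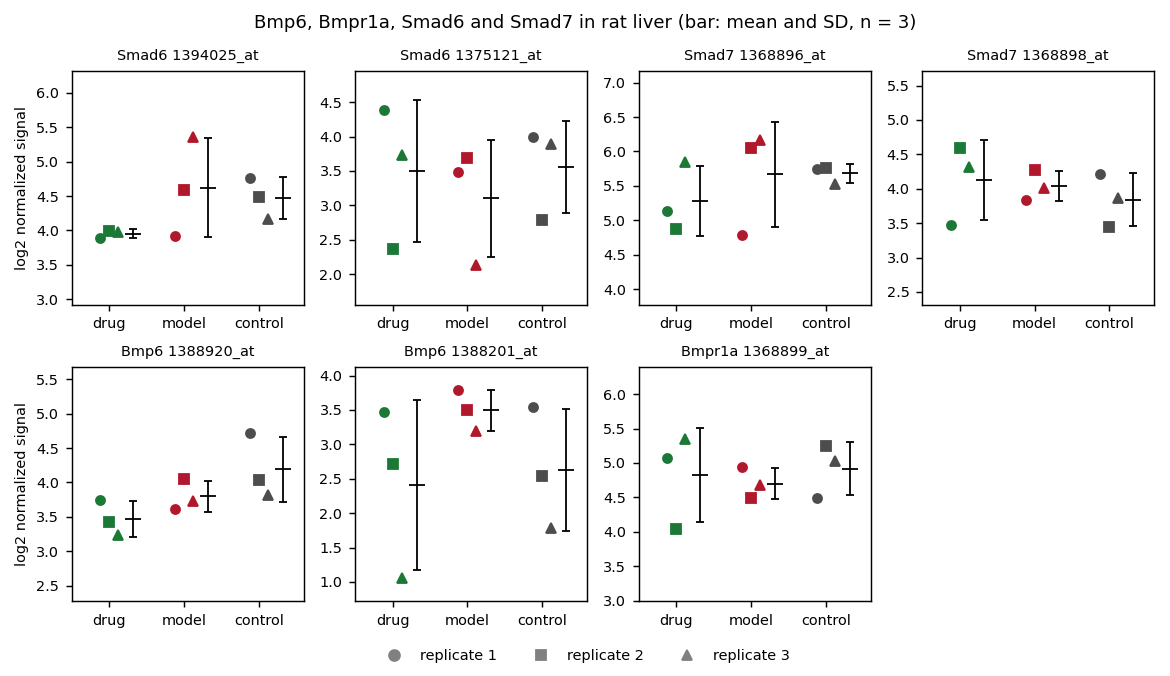
Log2 normalized signal of the 7 probe sets of Bmp6, Bmpr1a, Smad6 and Smad7 past the filter in each array, with the groups drug, model and control on the horizontal axis and a bar for the mean and SD of 3 rats. Each panel has its own vertical range. In Smad6 1394025_at and Bmp6 1388920_at the 3 drug livers lie below the 3 control livers.

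Groups without overlap were counted over the 15 probe sets and set beside all probe sets, with probe sets of the same gene sharing a source. In model against control, 2 of 15 had every model liver below every control liver (Id2 1368870_at and Id4 1375120_at) and 0 of 15 had every model liver above, where the shares over all 18625 probe sets were 10.9% and 11.8%; the median difference was -0.06 in the 15 and 0.02 in all. In drug against model, 2 of 15, both of Id2, had every drug liver above and 0 of 15 below, against 3.35% and 4.7% of all, with medians of -0.01 and -0.02. In drug against control, 3 of 15 (Id2 1368870_at, Smad6 1394025_at and Bmp6 1388920_at) had every drug liver below and 0 of 15 above, against 6.49% and 6.05% of all, with medians of -0.10 and -0.02. The 3 comparisons share arrays and are not independent, and the Id2 counts describe the gene on which the choice rests.

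At a limma adjusted p under 0.05, 0 of the 13 probe sets other than those of Id2 were called in drug against model and 0 of 13 in drug against control, where 0% of the 18625 tested were called in each; model against control, also at 0% of all, was not tested for these genes, nor was Id2 in any comparison. Unadjusted p values under 0.05 numbered 610, 1345 and 2245 over all probe sets in drug against model, drug against control and model against control. Among the 13 probe sets 0 had one in either drug comparison, with a limma adjusted p of 0.998 for each in drug against model and between 0.70 and 0.99 in drug against control.

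**Figure D4:**
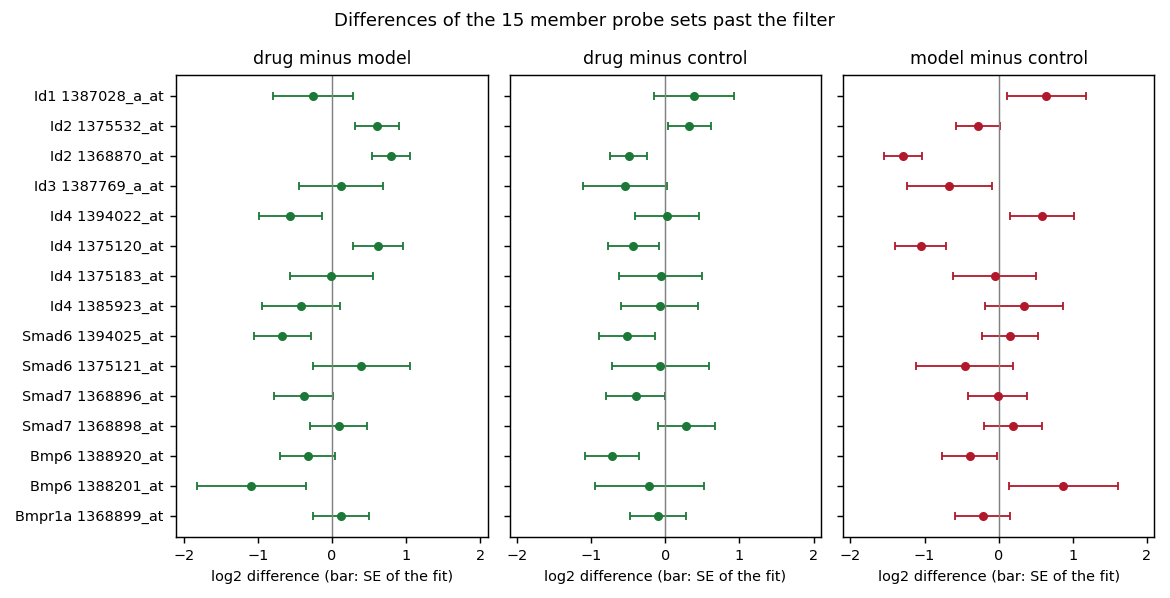
Log2 differences of the 15 probe sets past the filter (points) with the SE of the limma fit (bars), for drug minus model, drug minus control and model minus control. Id2 1368870_at lies at 0.80, -0.50 and -1.29, and different probe sets of Id4 and of Bmp6 lie on both sides of 0 in model minus control.

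Genes of the same pathway outside the 8 were read from 6 lists, 1 probe set per gene, and 61 of 90 genes passed the filter. None of the 61 was called in either direction in any comparison, as for all probe sets. In model minus control 33 were above 0 and 28 below, with a median of 0.07; in drug minus model 20 were above and 41 below, with a median of -0.20; and in drug minus control 28 were above and 33 below, with a median of -0.03. Groups without overlap counted 11 of 61 with the model livers higher and 5 lower than the control livers, 3 of 61 with the drug livers higher and 7 lower than the model livers, and 2 of 61 higher and 7 lower than the control livers, to be read against the shares of all probe sets above.

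Among the ligands, Bmp2 had 5.80, 5.65 and 5.02 in drug livers, 6.76, 6.39 and 6.28 in model livers, and 6.17, 5.87 and 6.16 in control livers. The 3 groups did not overlap, with the model livers highest and the drug livers lowest, and the differences were -0.98 for drug minus model and -0.58 for drug minus control (limma adjusted p = 0.998 and 0.68). Bmp5 had every model liver above both other groups, by 0.73 over the control livers. Bmp7 was lower in every drug liver than in every control liver, by -0.84, and Inhbc, a hepatocyte activin subunit, stood at -2.57 in model minus control with a single model array at 0.36.

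Among the receptors, the TGF-beta receptor kinase Tgfbr1 and the BMP and activin type I receptor Acvr1 were higher in every model liver than in every control liver, by 0.80 and 0.69. Every drug liver had less Tgfbr1 than any model liver, by -0.49. Endoglin (Eng), an endothelial co-receptor, had 5.82, 5.85 and 6.04 in drug livers, 5.81, 6.78 and 5.97 in model livers, and 6.94, 7.03 and 6.52 in control livers. Its drug livers lay below the control livers by -0.92, and Rgmb, a BMP co-receptor, by -2.15 (limma adjusted p = 0.68 for both). Rgmb had 4.07, 1.67 and 1.47 in drug livers and 4.50, 4.53 and 4.63 in control livers. Drug 2 and drug 3 were thus under the filter level in Rgmb, near background. Of the Smad transducers, which carry the signal to the nucleus, Smad1 was at 0.28, Smad3 at -0.48, Smad4 at 0.56 and Smad5 at 0.32 in model minus control.

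The extracellular BMP antagonist Chrd had 4.85, 6.75 and 6.59 in drug livers, 6.28, 6.46 and 7.04 in model livers, and 3.32, 5.08 and 5.76 in control livers. Every model liver lay above every control liver, by 1.88, with control 1 at the low end. Skil, a Smad co-repressor, was 0.88 higher in the model livers without overlap, while Fstl1 and Fkbp1a, which holds type I receptors inactive, were at -0.85 and -0.57 in drug minus control without overlap. Of the target list, the transcription factor Runx1 had 4.78, 5.97 and 4.49 in drug livers, 7.20, 6.11 and 6.54 in model livers, and 4.85, 3.93 and 5.21 in control livers, so the model livers stood above both other groups. Hes1, Msx1 and Ccn2 differed by 0.77, -0.54 and -0.68 in drug minus model. Hamp, chosen after its values were seen because its promoter is shown, had 11.57, 11.89 and 11.76 in drug livers, 11.84, 11.99 and 11.72 in model livers, and 11.96, 11.84 and 11.84 in control livers, with overlapping groups.

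The E proteins that Id proteins bind were also measured. Tcf4 had 5.73, 7.15 and 6.38 in drug livers, 6.72, 7.01 and 6.83 in model livers, and 5.68, 6.29 and 6.24 in control livers, and Tcf12 was likewise higher in every model liver than in every control liver, by 0.60 against 0.79 for Tcf4. Tcf3 did not pass the filter. Usf1, another E-box-binding factor, was at -0.52 in model minus control without overlap, and Srebf1, which binds E-boxes and sterol elements, was higher in every drug liver than in every other liver.

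**Figure D5:**
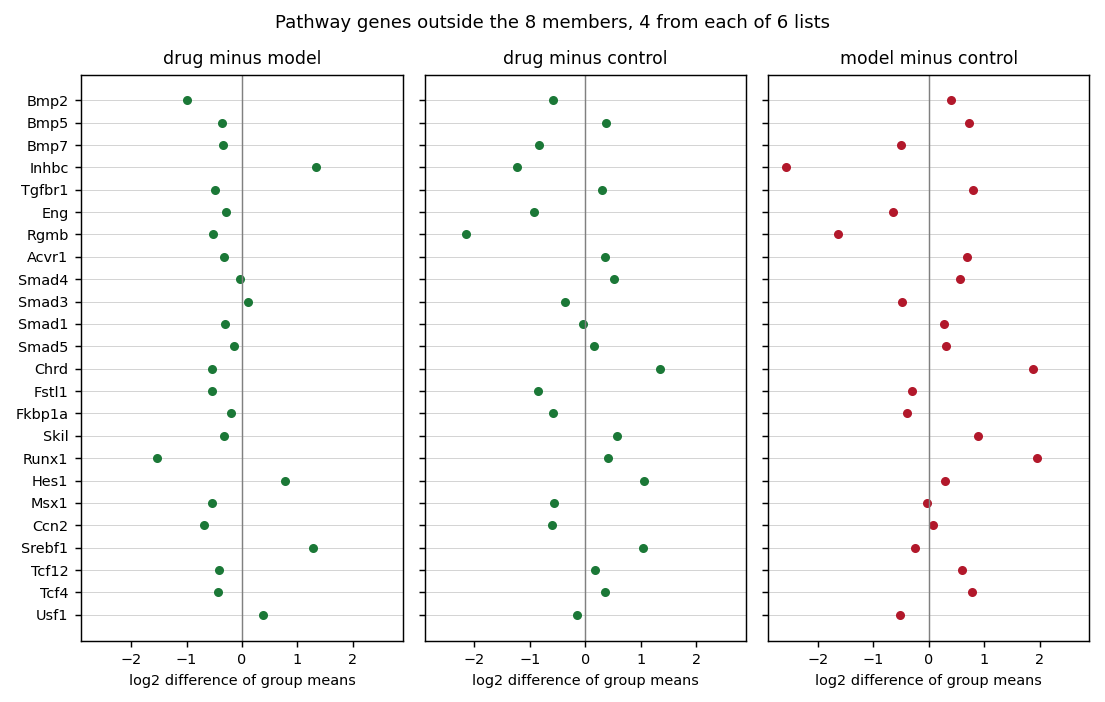
Log2 differences of group means for 24 pathway genes outside the 8, up to 4 from each list in the order ligands, receptors, Smad transducers, inhibitors, other targets and Id partners from top to bottom, for drug minus model, drug minus control and model minus control. Bmp2 lies at -0.98, -0.58 and 0.41, and no gene passed the test.

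Markers of non-parenchymal cells also differed between the groups. The summed linear signal of 10 sinusoidal endothelial markers was 672 to 768 in drug livers, 922 to 1305 in model livers and 774 to 886 in control livers, so that the groups did not overlap. Lyve1 carried much of that sum, and without it the ranges were 440 to 641 in drug livers, 506 to 730 in model livers and 494 to 611 in control livers, which overlapped. All 10 passed the filter. Of these, 4 were higher in every model liver than in every control liver, and another 4 (Kdr, Gpr182, Tek and Ehd3) were lower in model livers on average, by -0.17, -0.38, -0.12 and -1.56. The sum of 12 stellate cell and fibroblast markers, all past the filter, was 771 to 1187 in drug livers, 1118 to 1544 in model livers and 778 to 902 in control livers. On average 7 of these were higher and 5 lower in model livers than in control livers, with Col1a2 lower in every model liver, by -0.77. That of 12 macrophage markers, of which Itgam was under the filter, was 1673 to 2567 in drug livers, 1795 to 3340 in model livers and 1258 to 2025 in control livers. Of the 11 past the filter 8 were higher and 3 lower on average, with Cd14 lower in every model liver, by -0.37. The sum of 5 neutrophil markers, of which Cxcr2 was under the filter, was 144 to 1465 in drug livers, 433 to 2676 in model livers and 124 to 341 in control livers, with every model liver above every control liver. S100a9, a calcium-binding protein abundant in neutrophils and the brightest of these, differed by 2.83 in model minus control. Without it the sum was 48.6 to 340 in drug livers, 90.3 to 1182 in model livers and 53.1 to 103 in control livers, with overlap. Of the 4 neutrophil markers past the filter 3 were higher in model livers on average, and Lcn2 was lower, by -0.79. The 6 bile duct markers, with Krt7, Cldn7 and Cftr under the filter, summed to 67.4 to 130 in drug, 54.1 to 136 in model and 83.7 to 148 in control livers. The 9 lymphocyte markers, with Cd4 and Cd79b under the filter, summed to 114 to 183 in drug, 91.7 to 168 in model and 75.7 to 156 in control livers. Past the filter, 5 of 7 lymphocyte markers were higher and 2 lower in model livers on average. Cd8a and Ms4a1 were higher in every model liver than in every control liver, by 1.03 each. Gzmb was lower in every model liver, by -1.57. Hepatocyte markers summed to 38268 to 41033 in drug livers, 34980 to 40145 in model livers and 39807 to 40142 in control livers. The part of cell composition in any difference above was not tested.

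Likeness to an Id probe set was measured over the 9 arrays as the root mean square difference between log2 profiles, each centred on its own mean, so that a smaller value means a closer profile. The genes closest to Id2 1368870_at, a probe set taken after its values were seen, were the hepatic lipase Lipc (0.20), the lipid droplet protein Plin2 (0.23), Bag4 (0.27), Ift122 (0.27) and Nherf2 (0.27), where the probe set itself varied by 0.58 about its mean. Lipc had 9.77, 9.40 and 9.74 in drug livers, 8.55, 9.29 and 8.75 in model livers, and 9.93, 9.93 and 10.06 in control livers. The order of groups is that of Id2 1368870_at, which follows from its choice by likeness over these same arrays. The genes closest to Id2 1375532_at were Trmt6 (0.15), Kcnj2 (0.16), Adat3 (0.16), Oaf (0.17) and Ano6 (0.20), and those closest to Id1 were Sash3 (0.30), Nat8b (0.34), Ddx31 (0.35), Golt1b (0.35) and Cmahp (0.35), with no gene in common among the 3 lists.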

How the data were processed

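Liver RNA of 9 rats, 3 per group, was hybridised to a one-colour Affymetrix rat array. The deposited values are signal intensities, 1 linear intensity per probe set and array, made with GCOS 1.2 as the submitters' processing notes say; no source used here states the settings or a scaling target, and the deposited signals of the arrays had no common scale. Depth has no meaning on an array, and the number of arrays limits the precision.

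From these, 57 of 31099 probe sets were left out as controls, and log2 signals were quantile-normalized, which removes any difference in total RNA signal. Gene names came from the platform annotation (20826 probe sets with 1 symbol, 436 with several, 9780 unnamed). Probe sets at or above the 40th percentile of mean log2 signal, 18625, entered 1 limma 3.58.1 fit (R 4.3.3, lmFit, eBayes with an intensity trend, two-sided, Benjamini-Hochberg adjusted over all 18625) with a mean for each group; calls needed an adjusted p under 0.05. The fit was tested on simulated data.

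The members, lists and tests were chosen with earlier results of these data known. Named were every member, up to 4 genes per pathway list by the smallest p over the 3 groups, and the 5 genes closest in profile to Id1 and to Id2; the probe set with the highest mean stood for a gene. Exceptions are named as such. Alternatives were scaling, offset, filter, trend, array weights, samples in the fit, the replicate block, a Gapdh ratio term and arrays left out. A further alternative averaged those probe sets of a gene that passed the filter, and left out those under it.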

Additional observations from a re-analysis of the deposited data

How the results depend on the processing

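The count of probe sets called over the whole table was 0 in each comparison. In model against control it was 1 without normalization (Fmo1), 4 with array weights (Slfn9, Siglec5, Fmo1 and Igsf6), 3 with the replicate block (Scd, Thumpd3-as1 and Siglec5), 1 without control 1 and drug 1 (Fmo1), a setting chosen after seeing the data, and 0 to 1 with each array left out. In drug against model it was 1 with only the groups compared, 1 without control 1 and drug 1 (Fmo1 in both) and 0 to 1 with each array left out, and in drug against control it was 0 under every alternative run. In the drug comparisons no member that was tested was among them, and in model against control the members carried no test. Deviations from the group means correlated at -0.01 to 0.48 between arrays of the same replicate number and at -0.37 to 0.32 between arrays of different numbers. The labels do not say that the numbers mark pairs or batches, and whether they do was not tested. The replicate block gave 0 calls in the other comparisons.

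Without normalization the median of all probe sets was -0.40 in model minus control, 0.06 in drug minus model and -0.36 in drug minus control, and with trimmed mean scaling 0.16, -0.06 and 0.08. Relative to these medians Id2 1368870_at was -1.47 in model minus control in both, which array scaling cannot change. Over all alternatives it lay between -1.87 and -0.79 (-1.52 to -1.12 with each array left out). Drug minus model lay between 0.62 and 1.02 for 1368870_at and between 0.50 and 0.75 for 1375532_at. Under the alternatives the directions that turned were these, with the cause not tested. In model minus control, Id2 1375532_at was 0.032 without control 1 and drug 1 and -0.53 to 0.032 with each array left out, Id3 was 0.48 with the Gapdh term, and Id4 1394022_at was -0.18 without normalization, -0.27 with the Gapdh term and -0.046 as the mean of the probe sets. Smad6 1394025_at, at 0.15, was -0.19, -0.031 and -0.15 under the same alternatives and -0.22 to 0.50 with each array left out. Smad7 1368896_at was 0.15 with trimmed mean scaling, 0.22 with array weights, 0.028 without control 2 and drug 3, 0.15 with a term for them, 0.022 without control 1 and drug 1, 0.091 as the mean of the probe sets and -0.26 to 0.43 with each array left out. Bmp6 was 0.24 as the mean of the probe sets and Bmpr1a 0.025 with trimmed mean scaling. In drug minus model, Id3 was -0.092 with array weights, -0.39 with the Gapdh term, -0.41 without control 1 and drug 1 and -0.41 to 0.49 with each array left out. Bmpr1a was -0.14 without control 2 and drug 3, -0.091 with a term for them, -0.0068 without control 1 and drug 1 and -0.14 to 0.51 with each array left out. Id1 was -0.54 to 0.068 with each array left out, and the mean of the Id4 probe sets was -0.092. In drug minus control, Id2 1375532_at was -0.20 without normalization and the mean of the Id2 probe sets -0.085, Id3 was 0.090 with the Gapdh term, and Id4 1375120_at was 0.085 without control 2 and drug 3. Id4 1394022_at was -0.59 without normalization, -0.30 with median centring, -0.15 with trimmed mean scaling, -0.45 with the Gapdh term, -0.091 without control 2 and drug 3, -0.14 as the mean of the probe sets and -0.22 to 0.41 with each array left out. Bmpr1a was 0.086 with trimmed mean scaling and -0.36 to 0.29 with each array left out. No member that was tested passed in a drug comparison under any alternative run; Id2 carried no test.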

Other observations

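Of the 20 member probe sets 5 lay under the filter, near background, and entered no test. Smad6 1385928_at had log2 signals of 2.09, 3.11 and 2.96 in drug livers, 2.69, -0.66 and -0.22 in model livers, and 4.12, 2.93 and 3.49 in control livers, with every model liver below every control liver and 4 of 9 arrays under the filter level. Smad6 1377467_at, with 7 of 9 arrays under that level, lay between -1.13 and 2.89. Smad7 1368897_at, also with 7 of 9, lay between 2.3 and 3.17 apart from model 1 at -0.47. Bmp6 1378827_at and 1378427_at had 8 of 9 arrays under the level, with drug 1 at 3.84 in the first and drug 3 at 3.70 in the second. Just inside the filter, Bmp6 1388201_at had a mean log2 signal of 2.84, and just outside it Smad7 1368897_at had 2.3.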
